A study of Mus musculus with 24 samples.

Results

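The chromatin regions described here were closed in epidermal stem cells (EpdSCs) before SOX9 induction and in the list labelled W1, were open 2 weeks after induction, and were still open at 6 and 12 weeks. They were selected from the 5 peak lists of an ATAC-seq time course in mouse skin. Peaks that overlapped by at least 1 bp were merged across the lists, and a region was kept if it had no peak in D0 or W1 and a peak in each of W2, W6 and W12. This rule found 7854 of 98240 in vivo regions, or 7.99%. The lists were not equally strict, since the lowest −log10 q was 14.5 at D0 and 4.21 at W2, and the same rule found 2886 regions with a common −log10 q minimum of 14.5 and 5106 with lists cut to equal sizes. The peak calls of these 5 lists therefore chose the regions, and the scores in them are given as a description.

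The mice were CD1 males of genotype K14rtTA; TRE-myc-Sox9, in which the keratin 14 promoter drives a doxycycline-dependent activator and this activator drives MYC-tagged SOX9. Doxycycline (DOX) was started at P21. Back-skin cells were sorted as CD31, CD45, CD117 and CD140a negative, CD49f high, CD34 negative and Ly6A high at D0 (P21), W1 (P28), W2 (P35) and W6 (P63), and from grafted skin at W12, which according to the methods was neonatal donor skin that healed on immunodeficient hosts before DOX was given, with the weeks counted from induction. The graft setting and the latest time cannot be told apart. The cultured EpdSCs all carried K14rtTA. The noDOX and WT-SOX9 groups carried TRE-myc-Sox9 without and with DOX at 1 µg/ml. The other DOX-treated groups carried SOX9 without its DNA-binding HMG domain (dHMG-SOX9), SOX9 without its transactivation domain (dTA-SOX9), FLAG-tagged AFOS, SOX9 with AFOS, or SOX9 with ARID1a. According to the methods, the WT, dHMG and dTA versions of SOX9 were delivered by lentivirus with puromycin resistance. For AFOS and ARID1a, the methods describe lentivirus given to K14rtTA cells with or without TRE-mycSOX9. The only noDOX group was of WT cells, so no arm with AFOS or ARID1a had its own. Between the arms, the recipient cells and the factor delivered cannot be told apart. For 1 replicate each of the WT-SOX9, dHMG-SOX9 and dTA-SOX9 groups the labels give day 3 of DOX. The series holds 24 samples in 12 groups of 2, and the 2 replicates of a group were merged by the authors into 1 peak list, in skin from several pooled mice per replicate. There was thus no replicate spread to test against. The intervals below are 95% Wilson intervals for shares and 95% Newcombe intervals for differences of shares, and they cover counting error only.

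SOX9 is a transcription factor of the hair follicle outer root sheath and of hair follicle stem cells (HFSCs), and it is normally silent in EpdSCs. It binds DNA through an HMG box, which inserts into the minor groove at short AT-rich words and can do so on nucleosomal DNA, the property that defines a pioneer factor. AP1 is a dimer of FOS and JUN proteins that is abundant in keratinocytes, and AFOS is a dominant-negative FOS that keeps AP1 off DNA. ARID1a is a subunit of the SWI/SNF remodelling complex. RUNX factors are partners of several lineage regulators in the follicle.

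The following 10 stretches of reference sequence were chosen from the regions described below, 8 with and 2 without a marked word. Marked words are therefore more frequent in them than in the regions at large. A SOX word or a marked 6-mer was held by 45.01% of those regions, against 26.65% of all in vivo regions. The marked 6-mers were themselves picked by their rank in the regions described. Each is 201 bases of the plus strand of the RefSeq assembly GRCm38.p6 (mm10), centred on the W2 summit, and capitals mark the SOX words ACAATGG or ACAATAG, the 6-mers ACAATG or ACAAAG, and the AP1 words TGACTCA or TGAGTCA, on either strand. They were taken from the strongest W2 regions, the regions with the strongest opening in culture, and the strongest region at Tcf7l2, Ctnnb1, Runx1, Barx2, Foxc1, Foxp1 and Tcf7l1. Those at chr4:97466013-97466213 and chr7:73197035-73197235 were intergenic and carried the 2 highest W2 scores. That at chr11:34739112-34739312 was in an intron of Dock2, chr19:55788394-55788594 in an intron of Tcf7l2, chr9:120932408-120932608 in an intron of Ctnnb1, chr16:92623994-92624194 in an intron of Runx1, chr9:31895075-31895275 in an intron of Barx2 and chr13:31797495-31797695 in an intron of the predicted gene Gm11379 beside Foxc1. Those at chr6:98972416-98972616, in an intron of Foxp1, and chr6:72650424-72650624, in an intron of Tcf7l1, hold no marked word.
Highest W2 score, chromosome 4: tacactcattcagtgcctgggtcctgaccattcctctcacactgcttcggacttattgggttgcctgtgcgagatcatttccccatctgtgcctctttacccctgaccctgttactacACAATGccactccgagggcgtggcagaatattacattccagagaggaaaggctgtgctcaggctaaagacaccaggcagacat
Second W2 score, chromosome 7: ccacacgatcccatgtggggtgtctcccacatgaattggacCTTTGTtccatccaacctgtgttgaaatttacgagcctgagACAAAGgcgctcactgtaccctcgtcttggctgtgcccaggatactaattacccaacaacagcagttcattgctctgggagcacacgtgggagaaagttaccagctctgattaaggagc
Dock2 intron: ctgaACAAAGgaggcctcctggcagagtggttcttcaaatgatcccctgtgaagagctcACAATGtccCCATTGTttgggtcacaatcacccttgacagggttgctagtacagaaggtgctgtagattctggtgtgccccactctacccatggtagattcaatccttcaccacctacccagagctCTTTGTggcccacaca
Tcf7l2 intron: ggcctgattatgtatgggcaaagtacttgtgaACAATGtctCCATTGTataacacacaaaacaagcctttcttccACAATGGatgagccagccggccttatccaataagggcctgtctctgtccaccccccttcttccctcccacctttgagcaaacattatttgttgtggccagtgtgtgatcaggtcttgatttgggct
Ctnnb1 intron: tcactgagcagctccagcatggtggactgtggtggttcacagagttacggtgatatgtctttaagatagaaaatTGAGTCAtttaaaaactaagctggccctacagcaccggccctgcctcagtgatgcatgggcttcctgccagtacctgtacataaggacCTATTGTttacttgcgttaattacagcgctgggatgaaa
Runx1 intron: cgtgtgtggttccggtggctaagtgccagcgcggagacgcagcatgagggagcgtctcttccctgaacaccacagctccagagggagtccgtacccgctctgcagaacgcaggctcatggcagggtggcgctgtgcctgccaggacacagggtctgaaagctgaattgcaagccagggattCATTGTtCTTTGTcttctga
Barx2 intron: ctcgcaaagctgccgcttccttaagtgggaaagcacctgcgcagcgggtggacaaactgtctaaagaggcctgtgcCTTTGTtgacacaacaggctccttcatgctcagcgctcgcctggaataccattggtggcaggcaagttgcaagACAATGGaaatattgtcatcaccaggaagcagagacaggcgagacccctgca
Region beside Foxc1: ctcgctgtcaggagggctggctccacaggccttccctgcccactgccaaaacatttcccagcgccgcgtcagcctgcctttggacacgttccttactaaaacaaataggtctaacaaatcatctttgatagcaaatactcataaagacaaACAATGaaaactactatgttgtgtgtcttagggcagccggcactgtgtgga
Foxp1 intron: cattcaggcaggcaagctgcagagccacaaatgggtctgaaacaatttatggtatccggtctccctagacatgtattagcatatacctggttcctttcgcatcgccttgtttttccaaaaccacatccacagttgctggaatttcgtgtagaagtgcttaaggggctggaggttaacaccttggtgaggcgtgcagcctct
Tcf7l1 intron: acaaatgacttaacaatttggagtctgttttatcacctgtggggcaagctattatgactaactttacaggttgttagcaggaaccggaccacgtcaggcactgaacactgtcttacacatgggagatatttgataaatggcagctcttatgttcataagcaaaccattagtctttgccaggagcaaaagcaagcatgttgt
The Tcf7l2 stretch held 2 SOX words, and the Dock2, Ctnnb1 and Barx2 stretches held 1 each. The Ctnnb1 stretch was the only one of these 10 with an AP1 word. Of all 16 stretches read by the same rule, 11 held a marked 6-mer, 4 a SOX word and 1 an AP1 word.

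The regions were mostly of moderate strength when they first appeared and were highest at W6. The authors' peak score, a depth-normalised MACS2 score with a floor of 3, had medians of 7.04, 9.74 and 6.90 in the W2, W6 and W12 lists, against medians of 9.81, 8.44 and 8.41 over all peaks of those lists. The interquartile range of the regions lay between 4.86 and 11.7 at W2, then between 6.42 and 14.7 in the W6 list and between 4.59 and 11.1 in the W12 list. The highest score of any region was 117, 79.6 and 55.0 in the same lists. The median region stood at percentile 36.4 of the W2 list, 56.0 of the W6 list and 41.8 of the W12 list. From W2 to W6 the score was higher in 5066 of the 7854 regions (64.5%), and from W6 to W12 in 2031 (25.9%). Of the 3 scores, that of W6 was the highest in 3942 regions, that of W2 in 2395 and that of W12 in 1517. Fold enrichment over the local background moved less, with medians of 6.43, 7.32 and 6.57.

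**Figure D1:**
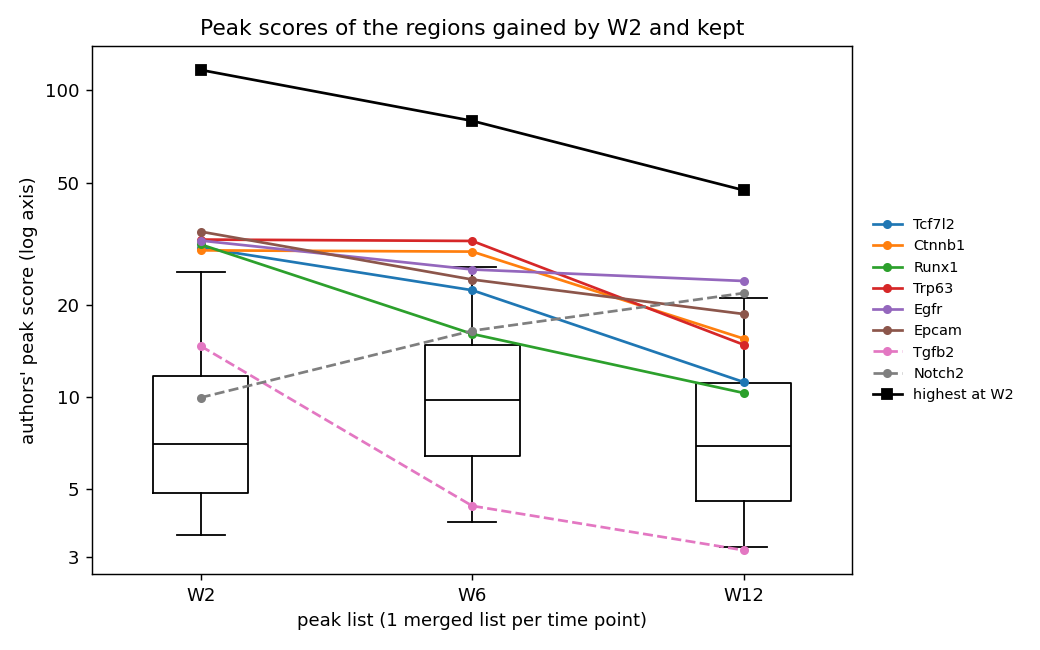
Authors' peak score (log axis) of the gained and kept regions, in the W2, W6 and W12 lists. Boxes show the interquartile range of the regions with the median, whiskers the 5th and 95th percentiles, and lines the strongest region in the window of the named genes; the medians were 7.04, 9.74 and 6.90, and the region with the highest W2 score fell from 117 to 47.2 at W12.

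At the edge of the rule, 1069 regions (13.6%) had at least 1 of the 3 late scores under 3.5, and the lowest was 3.002. Another 4491 regions had peaks at W2, W6 and W12 and a peak in just 1 of the 2 early lists (3254 in D0, 1237 in W1), and in 879 of these that early score was also under 3.5. A further 6773 regions lacked the W2 peak, 2818 the W12 peak and 555 the W6 peak of the pattern.

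Across the 12 lists, peak numbers ran from 49458 to 75956, and depth per library was not analysed here. All 6 EpdSC marker genes had a peak within 1 kb of a start at D0 and W2 and 5 of 6 at W1, W6 and W12, Ly6a being the one without. HFSC markers were open in 3 of 5 genes at D0, W1 and W2 and in 5 of 5 at W6 and W12, where Cd34 (scores 5.90 and 3.03) and Lgr5 (5.73 and 7.73) were added. Of the other cell types, several of which the sort was gated against, the 3 immune markers were closed in all 5 lists. Of the endothelial markers Cdh5 was closed in all 5 lists, Kdr had a peak at W2 (5.85) and W6 (6.29) alone, and the Pecam1 start scored 9.21 at D0, had no peak at W1, and scored 38.3, 42.2 and 41.4 at W2, W6 and W12, so the summed endothelial score was 9.21, 0, 44.1, 48.5 and 41.4. The fibroblast markers were open in 2 of 3 genes (summed score 13.8 to 23.4) and the melanocyte markers in 1 of 5 (20.1 to 38.0) in every list, with Col1a2, Kit, Tyr, Mlana and Sox10 closed throughout. The part of other cells in the gained regions was not tested. Over the last exon of Sox9, where reads of the endogenous gene and the transgene both fall, there was a peak at D0 (13.5), W2 (15.1), W6 (9.22) and W12 (8.84) and none in the list labelled W1, so this exon does not follow the labelled induction. The paper reports SOX9 protein in EpdSC nuclei by W1, and the reason for the missing exon peak was not tested.

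The gained and kept regions lay away from promoters. Their centres were within 1 kb of a transcript start in 735 of 7854 cases (9.36%, interval 8.73 to 10.02), against 38.0% of the 37116 regions present in all 5 lists (static regions) and 21.7% of all in vivo regions. The share was 8.87% in the 6773 regions that first appeared at W6 and were present at W12 (late regions) and 12.5% in the 2531 regions present at W2 alone. The median distance to the nearest start was 10959 bp, against 3767 bp in static regions. By annotation 4019 (51.2%) lay in introns, 3320 (42.3%) between genes, 126 (1.60%) in coding exons and 149 (1.90%) in untranslated exons, the last against 13.2% of static regions. Their median width was 535 bp, between the late regions (420 bp) and the static regions (783 bp). The central 200 bp had a median GC content of 48.5% and held a mean of 2.80 CpG dinucleotides, against 53.5% and 8.17 in static regions and 48.0% and 2.87 in late regions. The share of in vivo regions that belonged to the group ran from 6.34% on chromosome 19 to 9.24% on chromosome 13 among the autosomes, and was 6.79% on X.

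In 2726 of them (34.7%) the nearest other region of the group was within 20 kb, against 27.7% of the late regions, which are fewer, and 75.4% of the static regions, which are more numerous. Runs with gaps of at most 20 kb that held 3 or more regions numbered 297 and contained 1032 regions. The longest held 11 of the 17 in vivo regions within 88.3 kb at Sema6a, which encodes a transmembrane semaphorin (chr18:47168830-47257099), and the next held 10 of 17 within 85.9 kb near Arntl, a core clock gene (chr7:113063507-113149392).

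Sequence was compared in the central 200 bp, on both strands, in the 7853 regions with a placed chromosome. A SOX word (ACAATGG or ACAATAG) was present in 958 (12.2%, interval 11.5 to 12.9), in 9.72% of W2-only regions, 7.81% of late regions, 3.14% of static regions and 5.33% of all in vivo regions. The difference was 9.06 percentage points against static regions (8.33 to 9.82), 4.39 against late regions (3.42 to 5.35) and 2.48 against W2-only regions (1.07 to 3.80). In equal ranges of W2 score, all 4 intervals of the difference from W2-only regions included 0, and in equal ranges of W6 score so did 3 of 4 against late regions. A second SOX word, ACAAAGG, gave 9.46% in the gained and kept regions against 4.94% of all. The same SOX letters written backwards without complementing (GGTAACA or GATAACA), which have the same base composition, were present in 3.64% of the gained and kept regions and 3.61% of all, a difference of 0.03 points (-0.38 to 0.48). GATAACA shares the letters GATAA with the GATA word AGATAA, so this control is not free of GATA sites. Pairs of ACAAT facing ATTGT with 3 to 5 bases between them occurred in 23 regions (0.293%), against 0.0835% of all regions.

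AP1 words were common in these regions but more common in those that opened later. TGACTCA or TGAGTCA was present in 2109 regions (26.9%, 25.9 to 27.8), above the static regions (15.8%), W2-only regions (9.41%) and all regions (19.6%) and below the late regions (39.9%, difference -13.1 points, -14.6 to -11.6). The RUNX word TGTGGT followed the same order, with 19.04% in the gained and kept regions, 23.1% in late, 12.1% in W2-only, 12.1% in static and 14.9% in all regions. The GATA word AGATAA was present in 7.92%, near the 7.31% of late and 8.255% of static regions. It was in 14.4% of W2-only regions (difference -6.47 points, -8.001 to -5.01) and 10.5% of all regions. The TEAD word ACATTCC was in 4.99%, 3.51%, 8.06%, 3.63% and 4.21% of the gained and kept, late, W2-only, static and all regions, and the FOX word TGTTTAC in 3.66%, 2.57%, 5.42%, 2.50% and 2.97%. The CTCF motif was in 1.02% of the gained and kept regions, 1.79% of late and 2.395% of all regions. For the TP63 word CATGNNNNNNCATG (1.12% against 1.13% of all), the TCF words CTTTGAT or CTTTGAA (7.56% against 6.64%), the LHX word TAATTA (3.97% against 4.16%), the KLF words GGGTGTG or GGGCGTG (11.3% against 12.5%) and the E-box CAGCTG (13.6% against 13.5%) the shares lay within 1.3 points of each other. The NFI word TGGCNNNNNGCCA (1.22% against 1.10%) and the TBX word AGGTGTGA (1.39% against 1.30%) were as close, and the GLI word GACCACCCA and the CEBP word TTGCGCAA were each found in 7 regions.

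**Figure D2:**
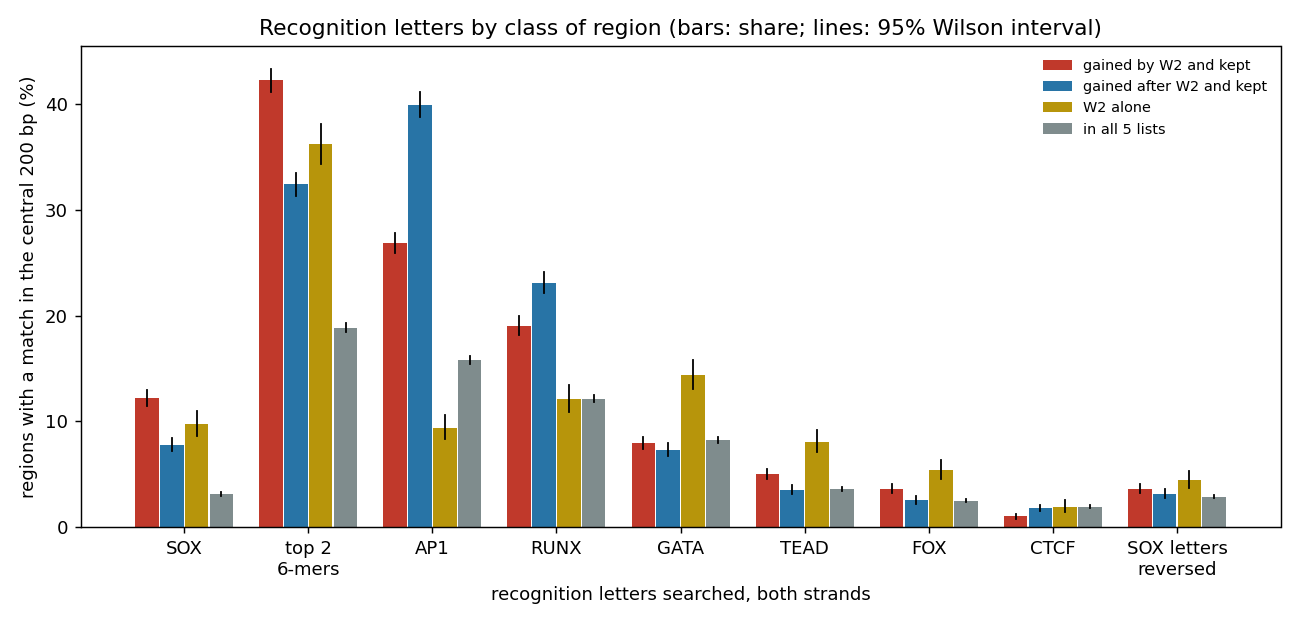
Share of regions (%) with each recognition word in the central 200 bp, by class of region, with 95% Wilson intervals as lines. The gained and kept regions had the highest SOX share (12.2%, a difference from W2-only regions whose intervals included 0 in equal ranges of W2 score) and an AP1 share (26.9%) between static (15.8%) and late regions (39.9%), while the reversed SOX letters lay between 2.89% and 4.47% in the 4 classes.

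A ranking of all 2080 6-mers, counted with their reverse complements, used no chosen motif. It compared the gained and kept regions with the 53241 other regions that were absent from at least 1 of the 5 lists, and it is given as a description. ACAATG ranked first (21.8% against 12.3%) and then ACAAAG (26.4% against 17.2%), followed by AACAAT (17.6% against 10.3%), and the first that is contained in an AP1 word, GACTCA, ranked 7 (32.5% against 27.0%). The last rank belonged to the GATA word AGATAA (7.92% against 12.4%), which was also low in late regions (7.31%). Either of the first 2 6-mers, picked by their rank in these same regions, was present in 3317 regions (42.2%, 41.1 to 43.3). The share was 36.2% in W2-only, 32.4% in late, 18.9% in static and 25.2% in all regions. In equal ranges of W2 score the difference from W2-only regions ran from -1.185 to 1.21 points, and every interval included 0. In 2577 of these 3317 regions no full SOX word was present.

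SOX words were concentrated at the point of highest signal. Within 50 bp of the W2 summit the gained and kept regions held 0.826 SOX words per 1000 regions and base, and at 200 to 300 bp 0.267, a ratio of 3.09. The ratio was 1.55 in late regions around their W6 summit, 0.999 in static regions around the W2 summit, and 1.18 in the gained and kept regions for the reversed letters. AP1 words were concentrated in all 3 classes, with ratios of 9.44, 13.5 and 8.11. In the 678 gained and kept regions with both a SOX and an AP1 word within 300 bp of the summit, the median distance between the nearest 2 was 106 bp and 63.3% were within 150 bp, close to the 118 bp and 60.2% of late regions and against 145 bp and 51.9% in static regions. An AP1 word was about as frequent beside a SOX word (24.3% of 958 regions, 21.7 to 27.1) as without one (27.2% of 6895, 26.2 to 28.3).

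**Figure D3:**
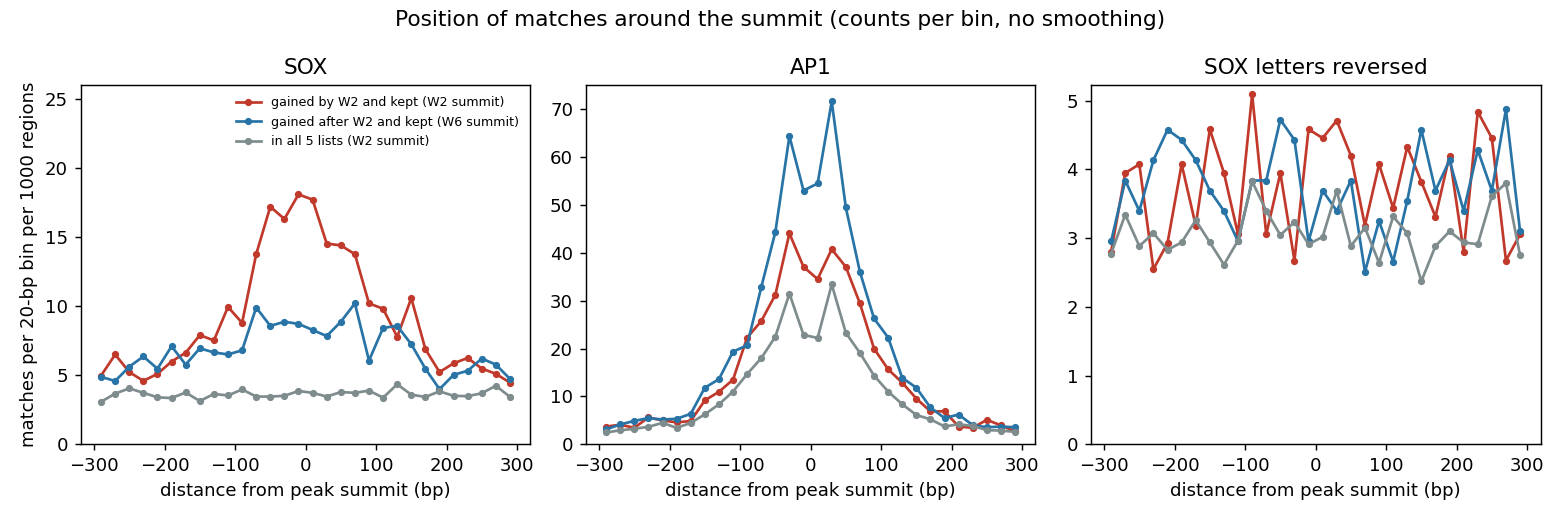
SOX words, AP1 words and reversed SOX letters per 20-bp bin and 1000 regions, by distance from the peak summit (bp), in gained and kept, late and static regions. The SOX curve of the gained and kept regions has a central peak (ratio of centre to flank 3.09) that static regions lack (0.999), and all 3 classes share a central AP1 peak.

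The cultured cells provide a readout that did not choose the regions. In 2929 of the 7854 regions (37.3%, 36.2 to 38.4) there was already a peak in uninduced cultured EpdSCs (noDOX), although the uninduced skin had none, against 40.3% of late, 11.7% of W2-only, 74.95% of static and 45.4% of all in vivo regions. Of the remaining 4925 regions, 1600 had a peak in the WT-SOX9 list (32.5%, 31.2 to 33.8), that is, they were opened, against 11.8% of all 53591 in vivo regions without a noDOX peak. The share was 16.4% in late regions (difference 16.1 points, 14.4 to 17.9), 10.2% in W2-only regions (22.2, 20.4 to 24.0) and 12.3% in static regions (20.2, 18.7 to 21.6). SOX9+AFOS opened 1151 (23.4%, against 13.1% of all) and SOX9+ARID1a 1302 (26.4%, against 11.2% of all). Without the HMG domain the share was 5.44% (268 regions, against 5.9% of all), without the transactivation domain 9.24% (455, against 8.88% of all) and with AFOS alone 8.63% (425, against 8.67% of all). For these 3 arms the difference from all regions was between -0.46 and 0.36 points, with intervals that included 0, and for each of them the late regions had a higher share (8.38%, 16.5% and 13.4%).

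The single most frequent culture pattern with a WT-SOX9 peak and no noDOX peak was a peak in the 3 groups with intact SOX9 (alone, with AFOS and with ARID1a) and in none of the other 4 lists. It was found in 628 of the 7854 regions (7.996%, 7.42 to 8.62), against 1.77% of late, 2.33% of W2-only, 0.666% of static and 1.53% of all in vivo regions. A peak in WT-SOX9 alone was found in 367 regions (4.67%, against 1.67% of all). At the other end 2553 regions (32.5%) had no peak in any culture list and 1110 (14.1%) had one in all 7, against 38.2% and 24.3% of all in vivo regions.

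**Figure D4:**
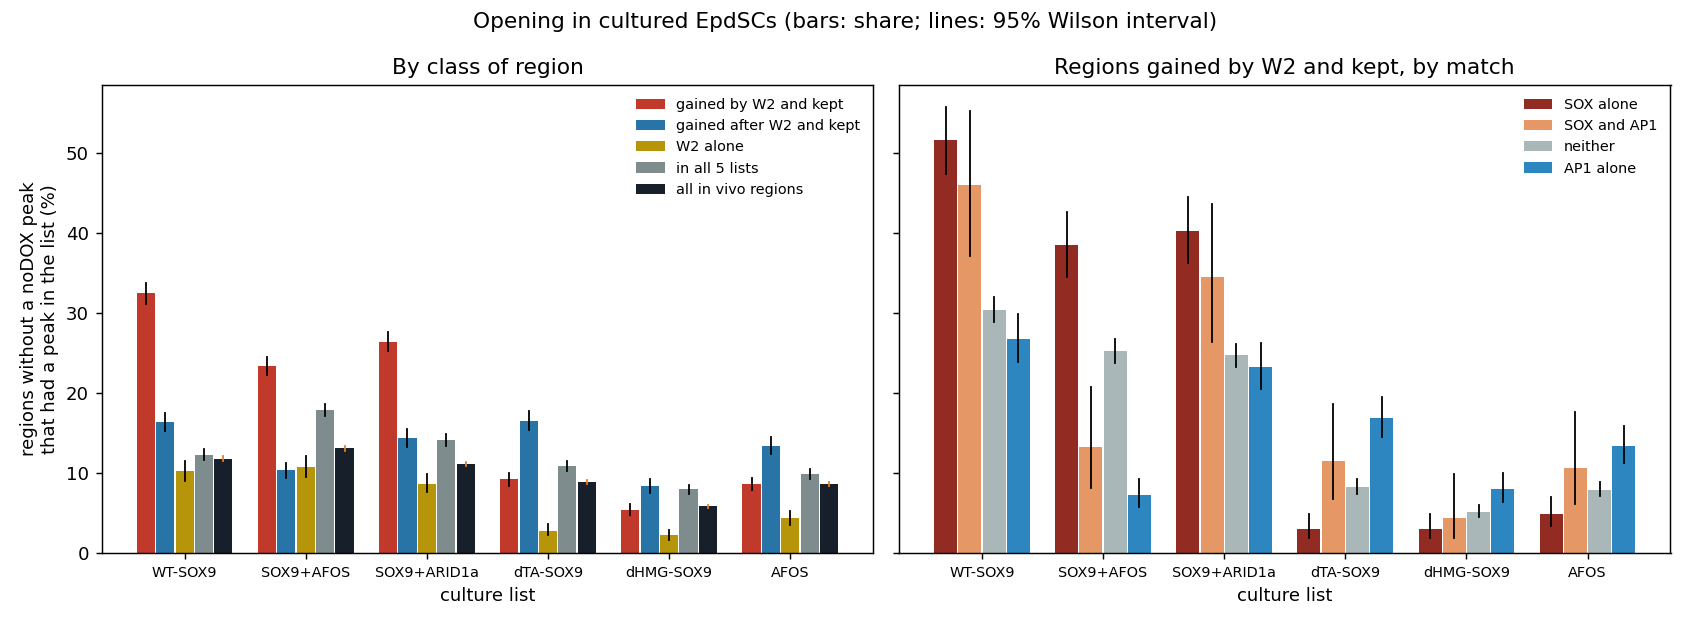
Share (%) of regions without a noDOX peak that had a peak in each DOX-treated culture list, with 95% Wilson intervals as lines: left, by class of region; right, the gained and kept regions by SOX and AP1 words. WT-SOX9 opened 32.5% of the gained and kept regions against 11.8% of all in vivo regions, and SOX9+AFOS opened 38.5% of those with a SOX word alone against 7.32% of those with an AP1 word alone.

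Opening in culture went with the strength of the region in skin. When the regions were divided into 4 equal groups by W2 score, WT-SOX9 opened 21.3% of the lowest (scores 3.01 to 4.86), 22.5%, 33.4% and then 50.5% of the highest (11.7 to 117). The SOX share was 8.36%, 10.8%, 11.9% and 17.8% in the same groups, and the AP1 share went the other way, from 31.6% to 30.0%, 24.96% and 20.9%. Among the 1600 opened regions the rank correlation of the WT-SOX9 score with the W2 score was 0.270, as a description over regions that share their libraries. The median W2 score was 9.94 in the opened and 6.53 in the 3325 unopened regions.

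Because W2-only regions were weak at W2, they were also compared within the same ranges of W2 score. The SOX difference was then -1.32 points (-3.23 to 0.55), 2.10 (-0.65 to 4.53), -0.51 (-5.83 to 3.57) and 2.62 (-13.2 to 11.3, with 33 W2-only regions) from the lowest to the highest range. The AP1 share was higher in the gained and kept regions in the 3 lower ranges, by 22.8 points (20.3 to 25.2), 19.3 (16 to 22.3) and 14.96 (9.81 to 18.9), and by 11.8 in the highest (-2.80 to 18.02). The opened share differed in all 4 ranges, by 12.03 points (9.28 to 14.8), 10.4 (6.68 to 13.9), 22.5 (16.7 to 27.0) and 32.7 (14.7 to 43.0). Against late regions in the same ranges of W6 score, the SOX difference was 2.94 points (1.499 to 4.49) in the lowest range, and the intervals of the 3 others (1.84, 0.06 and 2.83 points) included 0. In the ranges of W12 score all 4 SOX intervals lay above 0 (2.90 to 4.96 points). The AP1 share was lower than in late regions in each of these 8 ranges, by 13.8 to 19.1 points in value, and the opened share higher, by 5.28 to 36.2 points.

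In equal ranges of width, the opening shares did not all keep their order against static regions. Under 400 bp, WT-SOX9 opened 22.1% of the gained and kept regions without a noDOX peak (19.3 to 25.1) and 25.4% of such static regions (20.99 to 30.3), and 14.6% of late regions. From 400 to 600 bp the shares were 30.7%, 13.2% and 17.5%, and at 600 bp or more 39.4%, 11.2% and 18.98%. SOX9+AFOS opened 18.5% of the gained and kept regions (15.9 to 21.4) under 400 bp, fewer than the 35.3% of static regions (30.4 to 40.6), while from 400 to 600 bp the intervals overlapped (21.6%, 19.99 to 23.3, against 19.4%, 18 to 20.8), and at 600 bp or more the shares were 27.8% and 16.2%. The SOX and AP1 shares stayed above those of static regions under 400 bp (11.98% against 3.20%, and 31.2% against 18.5%). The AP1 share was lower than in late regions under 400 bp (31.2% against 43.6%) and from 400 to 600 bp (31.7% against 42.8%), but at 600 bp or more the intervals overlapped (18.6%, 17.3 to 20.1, against 21.1%, 18.7 to 23.7). The SOX share of the gained and kept regions was above that of late regions in each range, with 11.98% against 6.89%, 12.4% against 8.73% and 11.97% against 7.84%.

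Regions with a SOX word were opened more often in culture. Among the regions without a noDOX peak, WT-SOX9 opened 336 of 664 with a SOX word (50.6%, 46.8 to 54.4) and 1264 of 4260 without (29.7%, 28.3 to 31.1), a difference of 20.9 points (16.9 to 24.95). The difference was 12.5 points with SOX9+AFOS (8.77 to 16.4) and 14.9 with SOX9+ARID1a (11.0 to 18.8). It had the other sign without the HMG domain (-2.46, -3.80 to -0.68), without the transactivation domain (-5.46, -7.09 to -3.41) and with AFOS alone (-3.19, -4.98 to -0.97). The word ACAAAGG gave 19.6 points with WT-SOX9 (15.1 to 24.2), the reversed SOX letters 2.45 (-3.98 to 9.45) and the RUNX word 0.70 (-2.66 to 4.18).

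In the SOX9+AFOS list, regions with an AP1 word had fewer peaks. Of the regions opened by WT-SOX9, SOX9+AFOS had a peak in 65 of 279 with an AP1 word (23.3%, 18.7 to 28.6) and in 789 of 1321 without (59.7%, 57.1 to 62.3), a difference of -36.4 points (-41.7 to -30.5). With SOX9+ARID1a the same difference was -2.89 points (-9.23 to 3.18; 62.4% and 65.3%). WT-SOX9 itself opened 29.1% of regions with and 33.3% without an AP1 word (difference -4.26, -7.42 to -0.97). A SOX word in the same region went with a higher share in WT-SOX9 whether or not an AP1 word was there: 46.0% of 113 regions with both words, 51.5% of 551 with SOX alone, 26.8% of 847 with AP1 alone and 30.4% of 3413 with neither. With SOX9+AFOS these shares were 13.3%, 38.5%, 7.32% and 25.3%.

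Some of the regions with a noDOX peak had no peak in a DOX-treated list. WT-SOX9 lacked a peak in 681 of the 2929 (23.3%, 21.8 to 24.8), against 21% of all in vivo regions with a noDOX peak, 11.9% of static and 37.2% of late regions. With a SOX word the share was 10.9% of 294 and without one 24.6% of 2635 (difference -13.7 points, -17.2 to -9.36). SOX9+AFOS lacked a peak in 41.04% of the 2929, against 28% of all in vivo regions with a noDOX peak, and in 46.6% of those with an AP1 word and 37.4% of those without (9.23 points, 5.57 to 12.9), whereas AFOS alone lacked one in 20.3% of the 2929, against 15.9% of all, and in 14.1% and 24.3% of those with and without an AP1 word (-10.2 points, -12.96 to -7.29).

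The list in which a region scored highest divided the group further. Regions highest at W2 had an AP1 word in 16.4% of 2395, those highest at W6 in 27.1% of 3942 and those highest at W12 in 42.6% of 1517, a difference of -26.1 points between W2 and W12 (-29.0 to -23.2). SOX words went from 14.9% to 12% and 8.38% (6.57 points, 4.54 to 8.54). A noDOX peak was present in 26.6%, 36.8% and 55.4%. WT-SOX9 opened 36.4%, 30.7% and 29.0% of the regions without one, SOX9+AFOS 29.0%, 22.1% and 13.5%, and dTA-SOX9 4.95%, 10.03% and 17.5%. Ranked by percentile within each list in place of the score, the AP1 shares were 14.3%, 26.5% and 40.6% and the SOX shares 15.7%, 12.2% and 8.57%. The score comes from the lists that the rule used, while the words and the culture lists were not used by the rule. The same split of other regions is not given here.

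**Figure D5:**
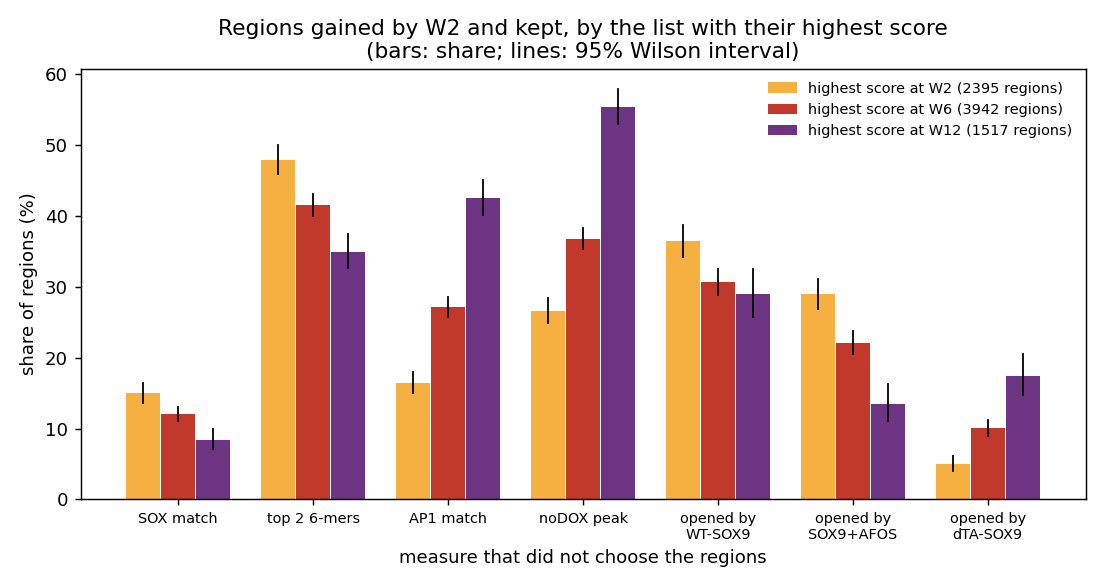
Shares (%) of the gained and kept regions with SOX words, the first 2 6-mers, AP1 words, a noDOX peak, and opening by 3 culture arms, split by the list (W2, W6 or W12) with the highest score, with 95% Wilson intervals as lines. AP1 words were in 16.4% of the W2 group and 42.6% of the W12 group, noDOX peaks in 26.6% and 55.4%, and SOX words in 14.9% and 8.38%.

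By nearest protein-coding start, the 7854 regions fell to 4286 genes, of which 2633 had a single region, 250 had 5 or more and 28 had 10 or more. The gene with most was Sema6a, with 21 of its 40 in vivo regions, at 7.39 to 162 kb from the start and with W2 scores of 3.54 to 28.9; 9 of the 17 without a noDOX peak were opened by WT-SOX9. Tenm4, which encodes a teneurin adhesion receptor, had 18 of 86, and 1 of 10 was opened by WT-SOX9. Runx1, a transcription factor of follicle stem cell activation, had 16 of 66 at 2.30 to 304 kb, with median scores of 8.49, 12.6 and 9.65 at W2, W6 and W12. Adgrl2, a latrophilin adhesion receptor, had 15 of 108, and none of its 10 regions without a noDOX peak was opened by WT-SOX9. Pik3r1, the regulatory subunit of phosphoinositide 3-kinase, had 15 of 85, all without a noDOX peak, of which WT-SOX9 opened 1 and SOX9+AFOS 5. Pdzrn3, a ubiquitin ligase, had 15 of 43, and no static region was assigned to it.

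Efna5, which encodes an ephrin ligand, had 13 of 94 regions, up to 1885494 bp away in a gene-poor interval. Gmds, an enzyme of GDP-fucose synthesis that lies beside Foxc1, had 13 of 36, and 3 of 10 were opened by WT-SOX9. Zbtb20, a transcriptional repressor, had 12 of 51, and Acvr2a, an activin receptor, 12 of 57. Sox9 itself, named after its values were seen, had 10 of 103 regions at 49.6 to 716 kb from its start, with median scores of 6.59, 11.4 and 7.71; 6 of the 10 had a noDOX peak and 1 of the other 4 was opened by WT-SOX9. The nearest start need not be the regulated gene.

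In windows of the gene body and 20 kb to each side, the gained and kept regions made up 26 of 200 in vivo regions at RUNX and SOX family genes (13%, 9.03 to 18.4), beside 7.99% over all regions. The share was 10.6% in the list of WNT pathway genes (21 of 199; 9.39%, or 17 of 181, without Edar, which that list holds but which signals through NF-kB), 8.83% at HFSC transcription factor genes (25 of 283), 7.56% at EMT, cadherin and matrix genes (9 of 119), 7.44% at follicle surface, keratin and secreted genes (9 of 121) and 6.44% at epidermal identity genes (17 of 264). It was 4.52% at TGF-beta and BMP genes (9 of 199), 3.82% at Hedgehog genes (5 of 131), 3.31% at BCC-associated genes (4 of 121) and 1.11% at AP1 subunit genes (1 of 90). With 100 kb to each side the Hedgehog share was 8.27% (22 of 266) and the RUNX and SOX share 11.8% (40 of 338). Of the 150 listed genes 56 had a member in their window (37.3%), beside 21.7% of 21911 protein-coding genes, with windows that differ in length.

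Within the RUNX and SOX list, Sox5, which encodes a SOX protein without a transactivation domain, had 9 of 43 regions in its window, Runx1 7 of 31 and Runx2, the bone regulator, 4 of 32. The Sox5 region with the highest W2 score (chr6:144019974-144020437, intron) scored 12.8, 24.9 and 19.7 at W2, W6 and W12 and held a SOX word, and it had peaks in every culture list except SOX9+AFOS. In the Runx1 window the region at chr16:92623839-92624342 scored 31.4 at W2 and fell to 16.1 and 10.3, and it was open in all 7 culture lists, from 12.2 in dTA-SOX9 to 59.1 in SOX9+AFOS. Another region in the window, at chr16:92739046-92739453, held a SOX word, scored 4.92, 8.21 and 5.26 in skin, had no noDOX peak and scored 27.9 in WT-SOX9, 3.24 in SOX9+AFOS and 6.09 in SOX9+ARID1a. The Runx2 region at chr17:44475840-44476442 scored 11.1, 28.4 and 13.3, held an AP1 word, and had a peak in every culture list except SOX9+AFOS.

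Among HFSC transcription factors, Foxp1 (a forkhead repressor) had 8 of 57 regions, Barx2 (a homeobox factor) 4 of 28 and Tcf7l1 (the WNT effector TCF3) 3 of 24. The Foxp1 region at chr6:98972265-98972824 scored 20.1, 24.4 and 9.38, and in culture it scored 13.1 in WT-SOX9, 31.6 in SOX9+AFOS and 6.26 in SOX9+ARID1a and had no peak in noDOX, dHMG-SOX9, dTA-SOX9 or AFOS. The Barx2 region at chr9:31894933-31895393 scored 14.9, 15.2 and 9.85 and had no peak in any culture list, although its sequence above holds a SOX word. The Tcf7l1 region at chr6:72650176-72651074 scored 26.7, 18.4 and 17.4 and was open in all 7 culture lists. The Tcf7l2 region at chr19:55788287-55788827, with 2 SOX words near its summit, scored 30.7, 22.3 and 11.2, and it was opened by WT-SOX9 (31.8), SOX9+AFOS (27.4) and SOX9+ARID1a (19.9) alone. The region beside Foxc1 (chr13:31797318-31798389) scored 29.8, 15.4 and 15.7 and had no culture peak.

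In the WNT list, Lgr6 (a follicle stem cell receptor) had 5 of 20 regions, Edar (the ectodysplasin receptor of placodes) 4 of 18, and Sfrp1 (a secreted WNT antagonist) 3 of 7. The Lgr6 region at chr1:135058019-135058570 scored 14.2, 21.9 and 8.62, and the Edar region at chr10:58684903-58685551 scored 11.3, 19.8 and 16.2. Both held a SOX word and were opened by WT-SOX9 (13.4 and 45.8), SOX9+AFOS (3.78 and 9.15) and SOX9+ARID1a (8.20 and 18.2) alone. The Sfrp1 region at chr8:23442893-23443715 had no SOX word, scored 13.3, 14.2 and 11.1, and was opened by the same 3 arms. At Ctnnb1, which encodes beta-catenin, 2 of 6 regions qualified. The stronger (chr9:120932309-120932890, 800 bp from the start) scored 30.1, 29.8 and 15.5 in skin. In culture this region scored 20.8 in WT-SOX9, 9.40 in SOX9+AFOS and 17.2 in SOX9+ARID1a.

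Among epidermal identity genes, Trp63 (the p63 master regulator of stratified epithelia) had 6 of 35 regions, Egfr 5 of 35 and Notch2 2 of 17. The Trp63 region at chr16:25844391-25844925 scored 32.6, 32.3 and 14.8, held a SOX word, and had peaks in every culture list except AFOS. The Egfr region at chr11:16857099-16857750 scored 32.4, 26.04 and 23.9 and had its highest culture score in SOX9+AFOS (27.5), with 7.75 in WT-SOX9, 7.04 in SOX9+ARID1a and no peak elsewhere in culture. The Notch2 region at chr3:98042956-98043563 scored 9.95, 16.4 and 21.8, held an AP1 word, and was opened by WT-SOX9 (28.3) and SOX9+ARID1a (13.9) and had no peak in SOX9+AFOS. The 3 Lgr5 regions were weak, with W2 scores of 3.54, 3.54 and 5.36.

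In the other lists the named regions had lower W2 scores, with exceptions at Epcam and Lrig1. The Epcam region (chr17:87616705-87617426; an epithelial adhesion molecule) scored 34.6, 24.2 and 18.6 and the Lrig1 region (chr6:94627998-94628601; a stem cell regulator of EGF receptors) 24.7, 22.4 and 23.1, both with a noDOX peak. The TGF-beta ligand gene Tgfb2 had 1 region, at chr1:186641096-186641594, that fell from 14.7 at W2 to 4.41 and 3.16 and was opened by WT-SOX9 (48.2), by SOX9+AFOS (21.8) and by SOX9+ARID1a (18.2). At Cd200 (3 of 8 regions), Ltbp1 (2 of 23) and Smad3 (2 of 25) the strongest W2 scores were 4.83, 4.8 and 4.21. At the Hedgehog genes Gli3 (2 of 27), Cdon (1 of 10) and Sufu (1 of 17) they were 12.03, 17.4 and 11.2. At Tnc (2 of 15) and Cdh1 (1 of 24) they were 14.6 and 9.89. Nfkb1 (2 of 29) reached 11.9 at 26 bp from its start, Bcl2 (1 of 20) 14.4, and Batf (1 of 5), the single AP1 subunit gene with such a region, 7.95.

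The regions with the highest scores were intergenic or intronic, and 1 of the 6, at chr17:61281037-61281678, had a SOX word in its central 200 bp. The region at chr4:97465682-97466563, 118473 bp from the start of E130114P18Rik, scored 117, 79.6 and 47.2 in skin, 26.9 in noDOX, 108 in WT-SOX9, 106 in SOX9+AFOS and 69.8 in SOX9+ARID1a, but 11.1 in dHMG-SOX9 and 10.1 in AFOS and had no dTA-SOX9 peak. The region at chr7:73196842-73197461 near Rgma scored 90.9, 62.2 and 37.5 and that at chr12:100281402-100282812 scored 79.4, 32.4 and 17.1, and both were opened by the 3 arms with intact SOX9 alone (76.2 and 38.2 in WT-SOX9). The region at chr17:61281037-61281678 scored 75.1 at W2 and 76.3 at W6. The region at chr4:6292318-6292978 near Cyp7a1 was 29.3 at W2 and 68.4 at W6. The region at chr5:33080774-33081553 near Slc5a1 went from 25.1 to 36.4 and 47.9, and it had 7.33 in WT-SOX9 against 25 in noDOX and 71.3 in SOX9+ARID1a.

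The 5 regions with the strongest WT-SOX9 score and no noDOX peak had scores of 85.9 to 102 in that list. They were chr18:3896557-3897302 (intergenic), chr10:107909635-107910208 (Otogl intron), chr2:32559458-32559996 (a noncoding exon of Fam102a), chr11:34738781-34739429 (Dock2 intron) and chr18:56744717-56745344 (Lmnb1 intron). All 5 also had peaks in SOX9+AFOS (29.8 to 65.5) and SOX9+ARID1a (31.3 to 58.9). In dTA-SOX9 and dHMG-SOX9 just the first had a peak (4.65 and 6.32), and AFOS alone had one in the first and the last (13.1 and 3.32). Their W2 scores were 33.3, 32.3, 16.9, 41.8 and 7.91, beside a median of 7.04 over the gained and kept regions.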

How the data were processed

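ATAC-seq peaks were analysed from 12 deposited lists, 1 per group. Per the methods and submitters' notes, the authors aligned reads to GRCm38/mm10 (PEPATAC; Bowtie2 2.2.9, Picard 2.3.0, SAMtools 1.9), merged both replicates, called peaks with MACS2 2.1.1 and kept those with a depth-normalised score of at least 3. The deposited in vivo lists give this score, the fold enrichment ratio, −log10 q and the summit offset (other), and the deposited culture lists give a score whose scale need not be that of the skin lists, so scores were related between them by rank alone. Read depth is unknown from these lists. Annotation was GENCODE vM21. Shares were computed with Python 3.11 and pandas, and the code was tested on simulated data. No test was possible with 1 list per group. The regions and gene lists were chosen with earlier results of these data known. Named were the 3 regions highest at W2, W6 and W12, the 10 genes nearest to most regions, the 3 genes per list whose window (20 kb to each side) held most regions, and the 5 regions highest in WT-SOX9 without a noDOX peak; other genes were named for their sequence, and some items are not reported here. Regions without a placed chromosome were left out of sequence shares. Comparisons in equal score or width ranges, the split by percentile and the WNT list without Edar were added after the data were seen. Alternatives changed the score floor, list sizes, q, merging, scanned sequence and start distance.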

Additional observations from a re-analysis of the deposited data

How the results depend on the processing

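No paired analysis was possible because each group has 1 merged list and no replicate columns. Under 9 alternatives, 26 of 45 values stayed within the counting interval (counts within 1.5 times) and 19 moved. The differences of shares kept their sign wherever they were recomputed, while shares and counts cannot change sign. With lists cut to equal sizes there were 5106 regions, of which WT-SOX9 opened 38.4%, and the SOX, AP1 and start-proximal shares were 13.2%, 28.5% and 8.66%. With a common −log10 q minimum of 14.5 these were 2886 regions, 47.7%, 15.1%, 23.7% and 8.35%. With scores of at least 5 the AP1 share was 28.8% and the opened share 31.4%, the latter within its interval. Scanning the full region gave SOX 23.6%, AP1 40.6%, a SOX difference in opening of 15.8 points and an AP1 difference with SOX9+AFOS of -29.0 points. Scanning 200 bp around the strongest summit gave SOX 13.3% and AP1 29.8%. Within 5 kb of a start lay 29.3%, and within 1 kb of a protein-coding start 5.84%. The causes were not tested.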
